A study of Bos taurus with 42 samples.

Results

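Across 3 fetal bovine tissues, 4 genes were followed whose proteins carry lipids, hormones, iron and heme in plasma: *APOB* (ENSBTAG00000008505), *TTR* (ENSBTAG00000010991), *TF* (ENSBTAG00000007273) and *HPX* (ENSBTAG00000003564). They are 4 of the 22664 genes in the count table, taken by the Ensembl identifiers that the supplementary tables of the study pair with these symbols, and each has 1 row. *TF* stands here for transferrin, not for transcription factor. *APOB*, *HPX* and *TF* also stand in gene lists that the study drew from these same libraries, so finding them high or shifted here is not independent evidence. The libraries came from 14 fetuses at day 50 of gestation, conceived by artificial insemination of Angus-cross heifers to a common sire. Of the dams, 7 received the control diet (CON, 100% of the energy requirement for their target gain), and 7 were restricted to 60% of the control intake (RES). CON held 6 male fetuses and 1 female, and RES held 5 males and 2 females, all without genetic modification or drug treatment. The liver, the cerebrum and the hind limb muscle of each fetus were sequenced, giving 42 libraries.

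Apolipoprotein B is the structural protein of very low density and low density lipoproteins, the particles in which the liver exports triglyceride and cholesterol. Transthyretin binds thyroxine and the retinol-binding protein, and it is known from 2 sites of synthesis, the hepatocyte and the epithelium of the choroid plexus, which secretes it into the cerebrospinal fluid. Transferrin carries ferric iron to cells, and it is known chiefly as a liver product, with synthesis in the brain by oligodendrocytes and, in some species, by the choroid plexus. Hemopexin binds free heme in plasma and returns it to the liver, where heme is broken down.

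Depth was 6658218 to 12741299 counts per liver library, 4145093 to 7576159 per cerebrum library and 5384018 to 7592149 per muscle library. Levels are given as CPM, the counts of a gene relative to the total of its library, with totals scaled by trimmed mean of M values (TMM) factors over all 42 libraries. No gene lengths were used, so values are compared within a gene and not between genes. A count of 0 allows up to 3 counts, which is 0.396 to 0.724 CPM of the unscaled library total in the cerebrum and 0.395 to 0.557 CPM in muscle, for counting error only.

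Some libraries stood apart from the rest of their tissue. In the liver, mitochondrially encoded genes took 67.7% of the counts of RES fetus 1, 44.9% of CON fetus 2, 35.6% of RES fetus 6 and 30.5% of RES fetus 33, while the other 10 livers held between 4.04% and 16.4%. In the cerebrum, RES fetus 1 held the largest mitochondrially encoded share among the 14 libraries (14.7%). Its 9 skeletal muscle markers summed to 334 CPM, against 3.38 to 33.2 CPM in the other 13 cerebra. The muscle of CON fetus 73 held 1346 CPM of the 10 forebrain markers and that of RES fetus 1 held 326 CPM, against 27.1 to 72.3 CPM in the other 12 muscles. The defining markers of the labelled tissue were present in all libraries. The 10 forebrain markers summed to between 2065 and 8281 CPM in the cerebrum, with *STMN2*, a neuronal tubulin-binding protein, the most abundant. The 11 hepatocyte markers summed to between 119015 and 389100 CPM in the liver, led by *SERPINA1*, which encodes the protease inhibitor alpha-1 antitrypsin. The 9 muscle markers summed to between 1715 and 14147 CPM in the hind limb, led by the embryonic myosin *MYH3*.

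The first comparison asked where the 4 genes were expressed. All 4 were highest in the liver and differed most from muscle, and *TTR* alone also reached the liver range in a cerebrum. *APOB* averaged 2089 ± 247 CPM in CON liver and 2182 ± 416 CPM in RES liver (SD, n = 7 each). Its level in the cerebrum ranged from 0 to 4.28 CPM, and 8 of the 14 cerebra had no count. In muscle *APOB* ranged from 0 to 1.29 CPM. The liver thus held all of its libraries above all those of the other tissues, and edgeR put the difference from the cerebrum at 11.67 log2 units (SE 0.56, adjusted p = 9.6e-23) and from muscle at 12.49 (SE 0.57, adjusted p = 4.0e-23).

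*HPX* was likewise highest in the liver. Its mean was 2002 ± 437 CPM in CON liver and 2598 ± 1289 CPM in RES liver (SD, n = 7 each). The cerebra held between 0 and 7.93 CPM of *HPX*, and the muscles between 0 and 1.61 CPM. Liver exceeded cerebrum by 11.02 log2 units (SE 0.54, edgeR adjusted p = 2.6e-22) and muscle by 13.11 (SE 0.60, edgeR adjusted p = 3.0e-23). For *TF*, the iron carrier, the means were 13452 ± 4365 CPM in CON liver and 10113 ± 5856 CPM in RES liver (SD, n = 7 each), and no library of another tissue exceeded 45.05 CPM. Its liver level exceeded that in the cerebrum by 11.12 log2 units (SE 0.72, edgeR adjusted p = 4.1e-18) and that in muscle by 12.41 (SE 0.74, edgeR adjusted p = 3.8e-19).

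*TTR* differed in its distribution. The liver held 1947 ± 379 CPM in CON and 2605 ± 1041 CPM in RES (SD, n = 7 each), and muscle held between 0.453 and 2.15 CPM, with 4 to 20 counts a library. The cerebrum spanned 11.03 to 5632 CPM, a 511-fold range, with its median between these at 55.4 CPM. Liver and cerebrum overlapped, since the cerebrum of RES fetus 1 (5632 CPM) lay above all 14 livers, whose highest was RES fetus 33 with 4276 CPM. Without TMM factors the livers held 573 to 1991 CPM of *TTR*. The cerebrum of RES fetus 1 (5907 CPM) again lay above them. Those of RES fetus 25, RES fetus 52 and CON fetus 46 (1466, 1249 and 1227 CPM) then lay within that range. The liver excess over the cerebrum was 2.11 log2 units (SE 0.62, edgeR adjusted p = 0.0018), and it was 3.65 (adjusted p = 1.5e-05) with the fetus as a replicate block. The cerebrum exceeded muscle by 8.82 log2 units (SE 0.84, edgeR adjusted p = 2.6e-12).

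All 4 genes were called higher in the liver than in the cerebrum, where 38.5% of the 15972 genes tested were, and all 4 were called higher in the liver than in muscle, where 36.6% were. Between cerebrum and muscle, the members parted. *TTR*, *HPX* (2.09 log2 units, SE 0.58, edgeR adjusted p = 0.0017, and 1.30 without RES fetus 1) and *TF* (1.29, SE 0.54, edgeR adjusted p = 0.033) were called higher in the cerebrum, as were 35.9% of all genes, and no difference beyond error was seen for *APOB* (0.82, SE 0.59, edgeR adjusted p = 0.22). Without RES fetus 1 the *APOB* difference was -0.00887. The *TF* call between cerebrum and muscle was lost with the fetus as a replicate block (0.96, adjusted p = 0.13) and without RES fetus 1 (0.57, adjusted p = 0.29). It was also lost without RES fetus 25 (1.14, adjusted p = 0.080) and without RES fetus 33 (1.06, adjusted p = 0.097). In bulk tissue, fewer cells of a type and less RNA per cell cannot be told apart.

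**Figure D1:**
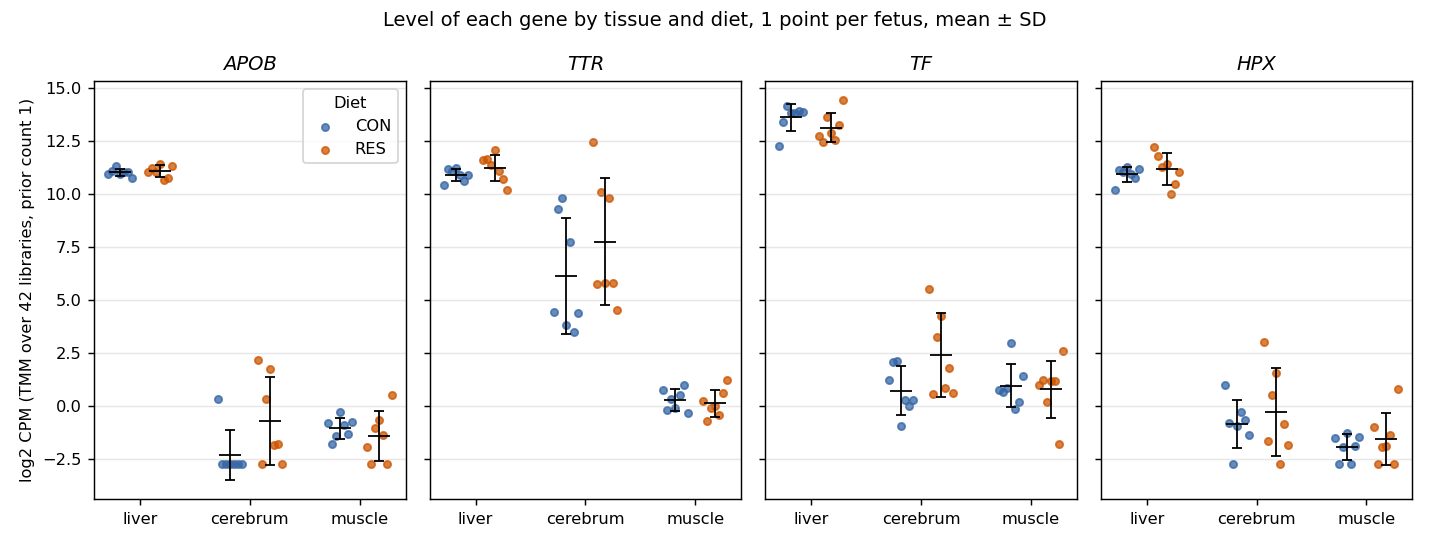
Level of each gene (log2 CPM, TMM over 42 libraries, prior count 1) in the liver, cerebrum and muscle, 1 point per fetus, with CON in blue and RES in orange; black bars give the mean and SD of each group of 7. The liver points lie above the other tissues for *APOB*, *TF* and *HPX*, while *TTR* in the cerebrum runs from 11.03 to 5632 CPM and overlaps the liver.

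The next question was whether the *TTR* and *TF* counts of the cerebrum kept the proportions of liver RNA. For each fetus, the cerebrum level of a gene was divided by the liver level of the same gene, a ratio that needs no gene length. Its size depends on the TMM scaling between tissues, which is shared by all genes of a fetus. Without TMM factors *TTR* in RES fetus 1 was at 5907 CPM in the cerebrum and 594 CPM in the liver. Of the 14 hepatocyte markers listed, 11 had an identifier, and all 11 were called higher in the liver than in the cerebrum. Among them, the hepatocyte transcription factor gene *HNF4A* had 0 counts in all 14 cerebra. The most abundant marker in the cerebrum was the fetuin gene *AHSG*, with a mean of 26.4 CPM. The highest percentage of the liver level that any of the 11 reached in a cerebrum was 0.4696%, for *AHSG* in RES fetus 1.

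*TTR* stood above this range in all 14 fetuses. It reached 179% of its liver level in RES fetus 1, and 42.1%, 41.9% and 41.2% in RES fetus 52, RES fetus 25 and CON fetus 46. The cerebra of CON fetus 23 and CON fetus 68 held 26.8% and 11.1%. The other 8 cerebra held between 0.582% and 3.34%, which still exceeded the percentage of every hepatocyte marker in the same fetus. In RES fetus 52 *TTR* was at 42.1% while the median of the 5 hepatocyte markers with a mean of at least 1 CPM in the cerebrum was 0.000878%. On the log2 scale *TTR* exceeded that marker median by 10.14 ± 3.26 (SD over 14 fetuses), higher in 14 of 14, and an exact two-sided sign-flip permutation test gave the smallest p it can reach here, 0.00012 (adjusted p = 0.00049 over 8 tests).

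*TF* was between 0.00252% and 0.654% of the liver level. It exceeded all 11 hepatocyte markers of the same fetus in RES fetuses 1, 6 and 52 and in CON fetus 46, and not in the other 10. Its highest percentages came from RES fetus 1 (0.654%, against 0.4696% for the highest marker), RES fetus 33 (0.248%) and RES fetus 25 (0.075%). The same 3 fetuses and CON fetus 2 held the 4 highest medians of the hepatocyte markers (0.201%, 0.138%, 0.0319% and 0.0784% in that order). *APOB* peaked at 0.203% in RES fetus 1 and 0.118% in RES fetus 33, and *HPX* at 0.165% in RES fetus 1 and 0.156% in CON fetus 2. On the log2 scale the excess over the marker median was 2.45 ± 1.64 for *TF* (higher in 13 of 14 fetuses, exact permutation p = 0.00024, adjusted p = 0.00065), 1.71 ± 1.68 for *APOB* (11 of 14, exact permutation p = 0.0023, adjusted p = 0.0031) and 2.65 ± 2.07 for *HPX* (12 of 14, exact permutation p = 0.00049, adjusted p = 0.00098). Where a cerebrum has few or no counts, this difference is set by the prior count and by how high the liver level is, so the values for *APOB*, *TF* and *HPX* in cerebra near 0 carry little information. The markers averaged more CPM in the liver than *APOB* and *HPX*, so at 0 counts the prior count alone puts the difference above 0. *APOB* had 0 counts in 8 of 14 cerebra and *HPX* a median of 3 counts, so their p-values carry little information. Both were below the marker median in RES fetus 33 (0.118% and 0.0990% against 0.138%) and above it in RES fetus 25. *HPX* alone was below it in RES fetus 1, and *APOB* alone in CON fetus 2. The marker median was itself near 0 in some cerebra (0% in CON fetus 69), so the size of the *TTR* excess there depends on the prior count too.

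**Figure D2:**
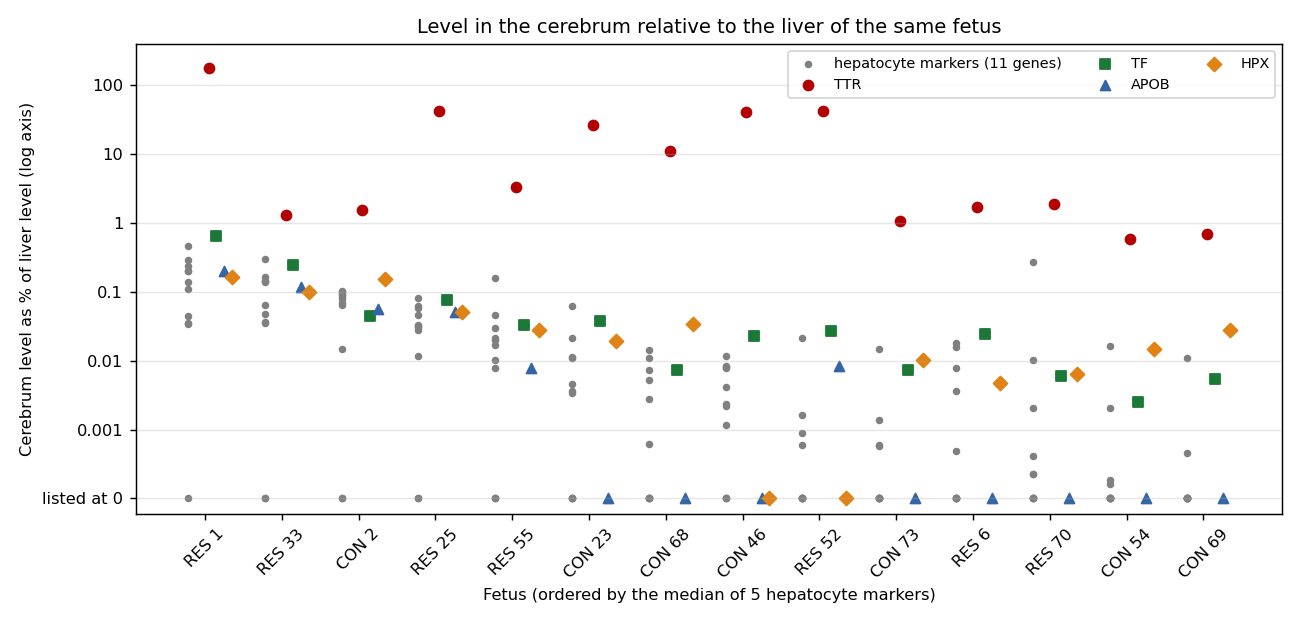
Level in the cerebrum as a percent of the liver level of the same gene in the same fetus (log axis, with genes at 0 counts drawn at the bottom), for 14 fetuses ordered by the median of 5 hepatocyte markers; grey points are the 11 hepatocyte markers and coloured symbols the 4 genes. *TTR* lies between 0.582% and 179%, above every grey point of its fetus, while *TF*, *APOB* and *HPX* lie at or below 0.654%.

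The counts behind these ratios can be read library by library. The cerebra richest in *TTR* were RES fetus 1 (5632 CPM, 44754 counts), RES fetus 25 (1102 CPM), RES fetus 52 (908 CPM), CON fetus 46 (896 CPM), CON fetus 23 (622 CPM) and CON fetus 68 (210.1 CPM). The remaining 8 lay between 11.03 CPM in CON fetus 69 and 55.6 CPM in RES fetus 55. Both diets thus had high and low libraries, and their ranges overlapped. For *TF*, RES fetus 1 held 45.05 CPM (358 counts), RES fetus 33 held 19.0 CPM (118 counts) and RES fetus 25 held 9.42 CPM (52 counts), and the other 11 cerebra held 0.365 to 4.25 CPM. The pair of cerebra that followed RES fetus 1 in *TF* therefore differed in *TTR*, at 55.2 CPM in RES fetus 33 and 1102 CPM in RES fetus 25.

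Markers of choroid plexus epithelium were set beside these values. Of 22 markers listed, 8 had an identifier, and none was at 0 in all cerebra. Their sum ranged from 46.7 to 269 CPM with a median of 96.1 CPM, and 77.7% of it was *OTX2*, a homeobox transcription factor of choroid plexus that also marks other parts of the early brain. *OTX2* ranged from 43.9 to 125 CPM and did not separate the cerebra that were rich in *TTR*. The sulfate transporter gene *SLC13A4* separated them only in part, with CON fetus 68 below RES fetus 55. It held 113 CPM in RES fetus 1, 16.7 in RES fetus 25, 14.6 in CON fetus 46, 11.6 in RES fetus 52, 9.69 in CON fetus 23 and 2.26 in CON fetus 68. RES fetus 55 held 5.43 CPM of *SLC13A4* with only 55.6 CPM of *TTR*, and the other 7 cerebra held between 0.12 and 1.29 CPM. The secreted protease inhibitor gene *WFIKKN2* was at 74.0 CPM in RES fetus 1, between 4.19 and 6.16 CPM in the next 4 cerebra in order of *TTR*, and at most 0.951 CPM in the remaining 9.

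Over the 14 cerebra, *TTR* correlated with the log2 sum of the 8 choroid plexus markers with r = 0.71 (permutation p = 0.0025, adjusted p = 0.0084 over 20 relations) and rho = 0.56 (permutation p = 0.042, adjusted p = 0.11). The relation weakened to r = 0.52 (permutation p = 0.083, adjusted p = 0.28) without RES fetus 1 and CON fetus 2, the 2 farthest from the median of the sum. With *OTX2* left out of the sum, a choice made after its share was seen, r was 0.93 and rho was 0.91 (permutation p = 1e-05, the smallest 100000 resamples can give, and 4e-05, adjusted p = 0.0002 and 0.0008). It was 0.91 without RES fetus 1 and CON fetus 46 (permutation p = 0.00037, adjusted p = 0.0074). Within diets, the sum of 8 markers gave r = 0.30 in the 7 CON cerebra (exact permutation p = 0.48) and r = 0.96 in the 7 RES cerebra (exact permutation p = 0.0002).

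With the hepatocyte sum, *TTR* gave r = 0.41 and rho = 0.53 (permutation p = 0.14 and 0.054, adjusted p = 0.19 and 0.11), and r = 0.26 without RES fetus 1 and RES fetus 33 (permutation p = 0.41). *TF* had the larger coefficient with the hepatocyte sum, r = 0.89 and rho = 0.81 (permutation p = 7e-05 and 0.00062, adjusted p = 0.00047 and 0.012). It was r = 0.70 without RES fetus 1 and RES fetus 33 (permutation p = 0.0093, adjusted p = 0.056), 0.98 within RES (exact permutation p = 0.0012) and 0.53 within CON (exact permutation p = 0.22). *APOB* (r = 0.94, rho = 0.77) and *HPX* (r = 0.88, rho = 0.69) also correlated with the hepatocyte sum (permutation p = 5e-05 and 7e-05 for r, 0.0022 and 0.0084 for rho, and adjusted p = 0.00047 for both r, 0.018 and 0.042 for rho). Leaving out RES fetus 1 and RES fetus 33 gave 0.84 and 0.72 (adjusted p = 0.055 and 0.056). *APOB* had no count in 8 of the 14 cerebra, so its coefficients rest on few libraries, and *HPX* had a median of 3 counts. With the choroid plexus sum *TF* gave r = 0.58 and rho = 0.31 (permutation p = 0.033 and 0.28, adjusted p = 0.067 and 0.40). With *OTX2* left out these were 0.76 and 0.80 (permutation p = 0.0020 and 0.00092, adjusted p = 0.0058 and 0.0061), and r fell to 0.55 without RES fetus 1 and CON fetus 46 (permutation p = 0.061). The difference between 2 such coefficients was not tested.

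The other marker sums moved with some of the same libraries. The 11 erythroid markers, led by the alpha globin gene *HBA*, summed to 284 CPM in RES fetus 1 and 103 CPM in RES fetus 25, against 6.57 to 33.8 CPM elsewhere. Their sum correlated with *TF* (r = 0.85, rho = 0.75), *TTR* (r = 0.75, rho = 0.65), *APOB* (r = 0.75, rho = 0.53) and *HPX* (r = 0.63, rho = 0.22). The permutation p for r was 0.00048, 0.0010, 0.0052 and 0.019 in that order (adjusted p = 0.0024, 0.0040, 0.015 and 0.042), and the adjusted p for rho was under the 0.05 threshold for *TF* (0.018) and over it for the other genes. Without RES fetus 1 and RES fetus 25, r was 0.70, 0.50, 0.47 and 0.0932 (adjusted p = 0.056, 0.28, 0.28 and 0.91, permutation), so all 4 calls were lost. Only 2 of 11 meningeal and fibroblast markers had an identifier, *PTGDS* and *SLC6A20*. They summed to 29.2 CPM in RES fetus 1 and to at most 4.76 CPM elsewhere, and the adjusted p for r was under the threshold for *TTR* alone (r = 0.58, rho = 0.38, permutation p = 0.018 and 0.18, adjusted p = 0.042 and 0.30). Without RES fetus 1 and CON fetus 2 that coefficient was 0.0988, so it rests on those libraries. The forebrain sum gave negative coefficients with all 4 genes, between -0.48 and -0.22, none of which passed after adjustment (lowest adjusted p = 0.16, permutation). Without TMM factors all 4 passed, with r between -0.71 and -0.60 (highest adjusted p = 0.046, permutation). Of the 8 oligodendrocyte markers, *OLIG1* alone had an identifier, at 0.739 to 8.38 CPM, with 2.26 CPM in RES fetus 1, the cerebrum richest in *TF*. Of the 7 macrophage markers with an identifier, whose most abundant gene was *C1QB*, the sum was 66.4 CPM in RES fetus 1 and 4.801 to 20.7 CPM in the rest. The part that the cells behind these markers have in the *TTR* and *TF* levels was not tested.

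**Figure D3:**
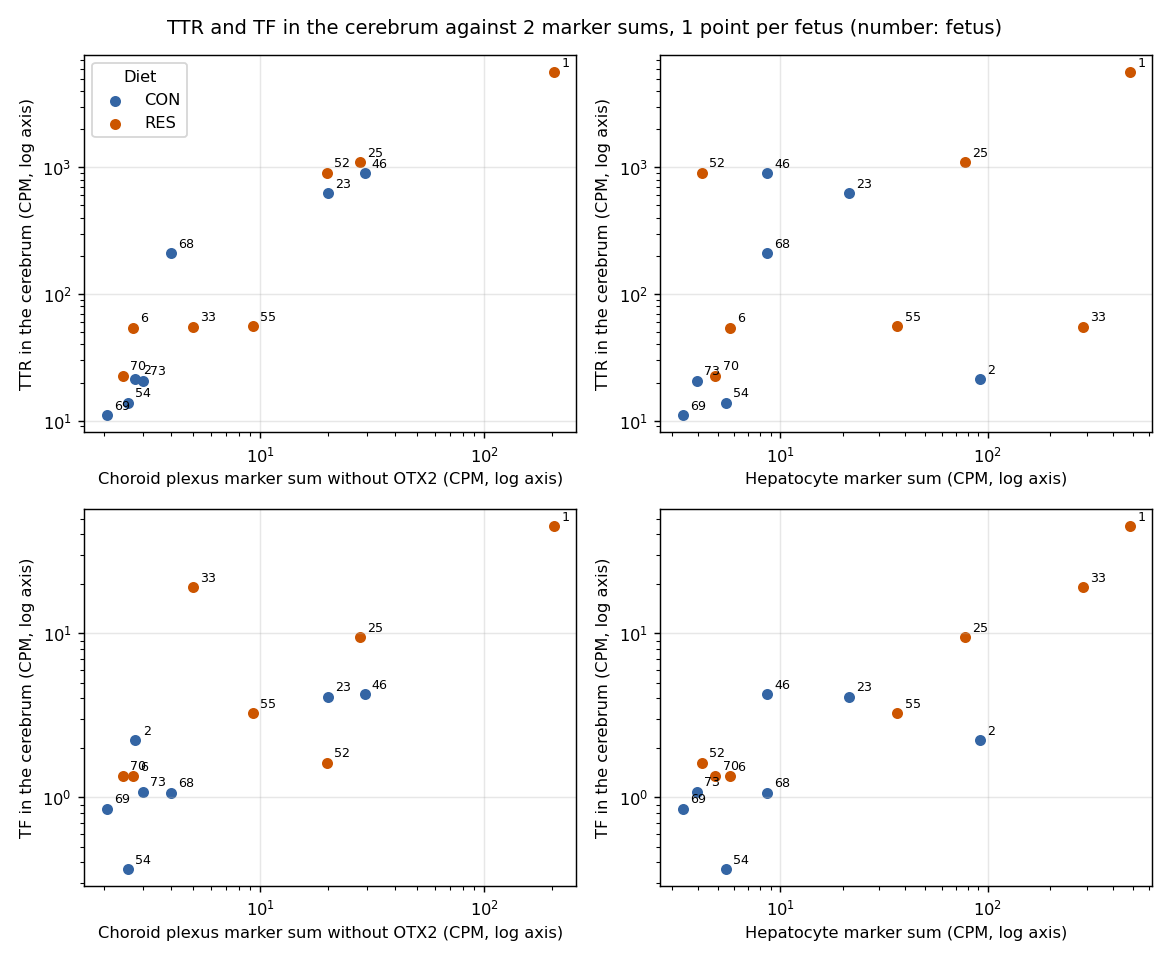
*TTR* (upper row) and *TF* (lower row) in the cerebrum (CPM, log axis) against the summed CPM of 7 choroid plexus markers without *OTX2* (left) and of 11 hepatocyte markers (right), 1 point per fetus with its number, CON in blue and RES in orange. The 5 cerebra with 622 CPM or more of *TTR* are those with the 5 highest choroid plexus sums (19.9 CPM or more), while RES fetus 33 and CON fetus 2 combine high hepatocyte sums (288 and 91.2 CPM) with low *TTR* (55.2 and 21.2 CPM).

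The genes with a symbol whose log2 CPM ran closest to *TTR* over the 14 cerebra, among 4626 compared, were *EDNRA* (an endothelin receptor, r = 0.96), *SLC13A4* (r = 0.96), *RARRES1* (r = 0.95), *WFIKKN2* (r = 0.95) and *SERPINF1* (r = 0.94). Of these 5, *SLC13A4* and *WFIKKN2* were among the choroid plexus markers listed. Without RES fetus 1 the 5 coefficients were between 0.91 and 0.95. Those closest to *TF* were *GC*, which encodes the vitamin D binding protein of plasma (r = 0.94), *AHSG* (r = 0.92), the red cell antigen gene *KEL* (r = 0.91), *FAP* (r = 0.90) and *CXCL14* (r = 0.90), and without RES fetus 1 they lay between 0.83 and 0.93. These are descriptions over 14 libraries of 1 tissue, in which RES fetus 1 was the highest for both genes.

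Among themselves, the members of the cerebrum correlated as *APOB* with *HPX* (r = 0.85, rho = 0.66), *APOB* with *TF* (r = 0.84, rho = 0.72), *TF* with *HPX* (r = 0.68, rho = 0.39) and *TTR* with *TF* (r = 0.67, rho = 0.74). The permutation p for r was 0.00031, 0.00066, 0.0083 and 0.0085 (adjusted p = 0.0056, 0.0059, 0.031 and 0.031 over 18 pairs), and for rho 0.013, 0.0055, 0.17 and 0.0039. Leaving out the 2 fetuses farthest from the median of the first gene (RES fetus 1 and RES fetus 33, or RES fetus 1 and RES fetus 25 for *TTR*) lowered all 4, to r = 0.64, 0.55, 0.17 and 0.38. *TTR* with *HPX* gave r = 0.20 (permutation p = 0.50, rho = 0.11) and *TTR* with *APOB* 0.37 (permutation p = 0.19, rho = 0.44). With no *APOB* count in 8 of the 14 cerebra, the coefficients of that gene rest on few libraries.

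In muscle the 4 genes were low, and *APOB* and *HPX* were near the limit of detection. The 11 hepatocyte markers summed to 149 CPM in RES fetus 70, 80.6 CPM in CON fetus 54 and 4.74 to 27.3 CPM in the other 12 muscles, led by *SERPINA1*, with *HNF4A* at 0 in every muscle. *TF* was highest in CON fetus 54 (7.70 CPM, 58 counts) and RES fetus 70 (5.90 CPM, 55 counts), and 0.139 to 2.50 CPM elsewhere. *APOB* (1.29 CPM, 12 counts) and *HPX* (1.61 CPM, 15 counts) were highest in RES fetus 70 too, and all other muscles held at most 5 and 3 counts of them. *TTR* was highest in RES fetus 70 as well (2.15 CPM, 20 counts). The muscles that were high in hepatocyte markers were thus those high in *TF*. Relative to the liver of the same fetus, *TTR* in muscle lay between 0.0143% and 0.181%, against 0.582% to 179% in the cerebrum. On the log2 scale it exceeded the median of 5 hepatocyte markers by 2.48 ± 1.25 (SD over 14 fetuses, higher in 14 of 14, exact sign-flip permutation p = 0.00012, adjusted p = 0.00049). The excess was 1.06 ± 0.79 for *APOB* (13 of 14, adjusted p = 0.0012, exact permutation test), 0.85 ± 1.07 for *TF* (10 of 14, adjusted p = 0.015, exact permutation test) and 0.54 ± 0.82 for *HPX* (11 of 14, adjusted p = 0.033, exact permutation test), with the same limit near 0 counts as in the cerebrum. The *HPX* call was lost in 8 of the 14 fits that left out 1 fetus (RES fetus 1, 52, 55 or 70, or CON fetus 23, 46, 69 or 73), with values of 0.47 to 0.52 and adjusted p of 0.050 to 0.064 in the exact permutation test.

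The study design addresses whether maternal intake changed these tissues, so the diets were compared within each tissue. In the liver, *APOB* was nearly level between diets: its lowest, median and highest values were 1746, 2092 and 2562 CPM in CON and 1635, 2116 and 2722 CPM in RES. For *TTR* they were 1372, 1906 and 2382 CPM in CON and 1186, 2629 and 4276 CPM in RES. For *HPX* they were 1184, 2099 and 2493 CPM in CON and 1012, 2482 and 4814 CPM in RES. For *TF* they were 4928, 14710 and 18515 CPM in CON and 5529, 7653 and 22191 CPM in RES. The diets overlapped for all 4 genes, and the RES livers included both the highest and, except for *TF*, the lowest value of each gene.

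The edgeR quasi-likelihood test called 0 of 13527 liver genes at an adjusted p of 0.05 (0%), and none of the 4 members, while 3260 genes (24.1%) had an unadjusted p under 0.05 and DESeq2 called 78. The RES minus CON difference was 0.42 log2 units for *TTR* (SE 0.21, unadjusted p = 0.067, edgeR adjusted p = 0.23), 0.39 for *HPX* (SE 0.28, unadjusted p = 0.19, edgeR adjusted p = 0.36), 0.05 for *APOB* (SE 0.16, unadjusted p = 0.76, edgeR adjusted p = 0.84) and -0.63 for *TF* (SE 0.33, unadjusted p = 0.078, edgeR adjusted p = 0.24). None had an unadjusted p under 0.05, where 24.1% of all genes did. The estimate for *APOB* turned negative without RES fetus 33 (-0.02) or RES fetus 70 (-0.01). That for *HPX* was 0.16 without RES fetus 1, and that for *TTR* ranged from 0.28 without RES fetus 33 to 0.64 without CON fetus 68. With the 4 livers of the highest mitochondrially encoded share left out (RES fetuses 1, 6 and 33 and CON fetus 2), which leaves 6 CON and 4 RES livers, the estimates were 0.00645 for *TTR*, -0.27 for *HPX*, -0.11 for *APOB* and -0.44 for *TF*, and those of *HPX* and *APOB* changed sign.

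Related genes of the liver were described from fixed lists, beside a median over all genes of -0.03 log2 units. In each list 0 genes were called by edgeR, and of all genes 13.5% were higher and 10.6% lower in RES at an unadjusted p under 0.05. Of the 17 lipoprotein genes, 12 had a higher estimate in RES, 8 of them with an unadjusted p under 0.05 and 1 lower gene also, and the median was 0.40. The list summed to 62353 CPM in RES fetus 1, 45073 in RES fetus 6 and 38754 in RES fetus 33, which are 3 of the 4 livers with the highest mitochondrially encoded shares, and to 12974 to 21652 CPM in the other 11. Without those 4 livers 6 of the 17 had a higher estimate, 0 higher and 1 lower gene had an unadjusted p under 0.05, and the median was -0.11. Its 3 most abundant genes were *APOA2*, a high density lipoprotein component (1.10, SE 0.34), *APOE*, a ligand of lipoprotein receptors (0.84, SE 0.32) and the phospholipid-binding *APOH* (-0.17, SE 0.19), with edgeR adjusted p = 0.18, 0.18 and 0.55. Of 13 iron and heme genes, 9 had a higher estimate and 3 an unadjusted p under 0.05, with a median of 0.40. This list summed to 6076 to 9195 CPM in the 4 livers of the highest share, to 6013 and 6042 CPM in CON fetus 23 and RES fetus 25, and to 2924 to 4196 CPM in the other 8. Without the 4 livers 9 genes still had a higher estimate, 0 had an unadjusted p under 0.05, and the median was 0.06. Its most abundant genes were the iron store *FTL* (0.56, SE 0.28), the biliverdin reductase *BLVRB* (0.42, SE 0.23) and the ferrireductase *STEAP3* (0.12, SE 0.13). Of 7 thyroid hormone and retinol genes, 2 had a higher estimate, the median was -0.09, and 1 lower gene had an unadjusted p under 0.05. Among its most abundant genes were *ALB* (-0.09, SE 0.32) and the thyroxine-binding globulin gene *SERPINA7* (-0.35, SE 0.16). Of 30 other secreted liver proteins, 19 had a higher estimate, with a median of 0.16, and an unadjusted p under 0.05 was found for 7 higher and 2 lower genes, against 0 and 1 without the 4 livers (5 of 30 higher, median -0.35). In this list *SERPINA1* (0.58, SE 0.36), *AHSG* (-0.77, SE 0.38) and *AFP* (-0.17, SE 0.29) were the most abundant. Of 7 hepatocyte transcription factor genes, 2 had a higher estimate, 1 of them with an unadjusted p under 0.05, with a median of -0.22, led by *FOXA3* (-0.20, SE 0.15), *HNF4A* (-0.44, SE 0.35) and *NR5A2* (0.01, SE 0.19). Without the 4 livers 2 of these 7 had a higher estimate, 0 had an unadjusted p under 0.05, and the median was -0.09. Over all genes 3.54% were higher and 3.32% lower at an unadjusted p under 0.05 without the 4 livers, a fit with fewer libraries that was chosen after the shares were seen.

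The mitochondrially encoded share had a lowest, median and highest value of 4.04%, 5.84% and 44.9% in CON livers and 4.34%, 12.6% and 67.7% in RES livers. All 12 mitochondrially encoded genes with an identifier had higher estimates in RES (median 1.75 log2 units), 5 with an unadjusted p under 0.05 and 0 called by edgeR. Without the 4 livers of the highest share, all 12 still had higher estimates, with a median of 0.52 and 0 at an unadjusted p under 0.05. That fit left out livers chosen by the share itself. This share moved with *TF* in the liver. The 5 livers lowest in *TF* were CON fetus 2 (4928 CPM), RES fetus 6 (5529), RES fetus 52 (6064), RES fetus 1 (6887) and RES fetus 33 (7653), and 4 of these held the 4 highest mitochondrially encoded shares, while RES fetus 52 held 9.61%. With mitochondrially encoded genes left out of the library size, log2 *TF* against the log2 share gave r = -0.85 and rho = -0.88 (permutation p = 0.00024 and 0.00011, adjusted p = 0.0014 and 0.00066 over 6 genes), a relation computed after the shares were seen. It was r = -0.82 without RES fetus 1 and CON fetus 2, -0.95 within CON and -0.72 within RES. *APOB* gave r = 0.07 (permutation p = 0.81, rho = -0.05), *HPX* 0.35 (permutation p = 0.22, rho = 0.34) and *TTR* 0.52 (permutation p = 0.058, rho = 0.44). *TTR* gave r = 0.78 without RES fetus 1 and CON fetus 2, -0.33 within CON and 0.83 within RES. *HPX* gave -0.61 within CON and 0.73 within RES. The sign of the relation thus differed between diets for both genes, a difference that was not tested. CON fetus 2, the CON liver with the highest share, was also the lowest CON liver in *TTR* (1372 CPM) and *HPX* (1184 CPM). How far the CON coefficients of these genes rest on that liver was not tested. *ALB* and *AFP*, hepatocyte genes set beside the members, gave -0.48 (permutation p = 0.083, rho = -0.46) and -0.46 (permutation p = 0.094, rho = -0.63). Within CON they gave -0.87 and -0.85, near the coefficient of *TF*, and within RES -0.10 and 0.10. Without RES fetus 1 and CON fetus 2, the diet difference was -0.71 for *TF* (SE 0.31, unadjusted p = 0.038, edgeR adjusted p = 0.15), 0.30 for *TTR* (edgeR adjusted p = 0.34) and 0.08 for *HPX* (edgeR adjusted p = 0.84). The part of the mitochondrially encoded share in the diet differences was not tested.

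**Figure D4:**
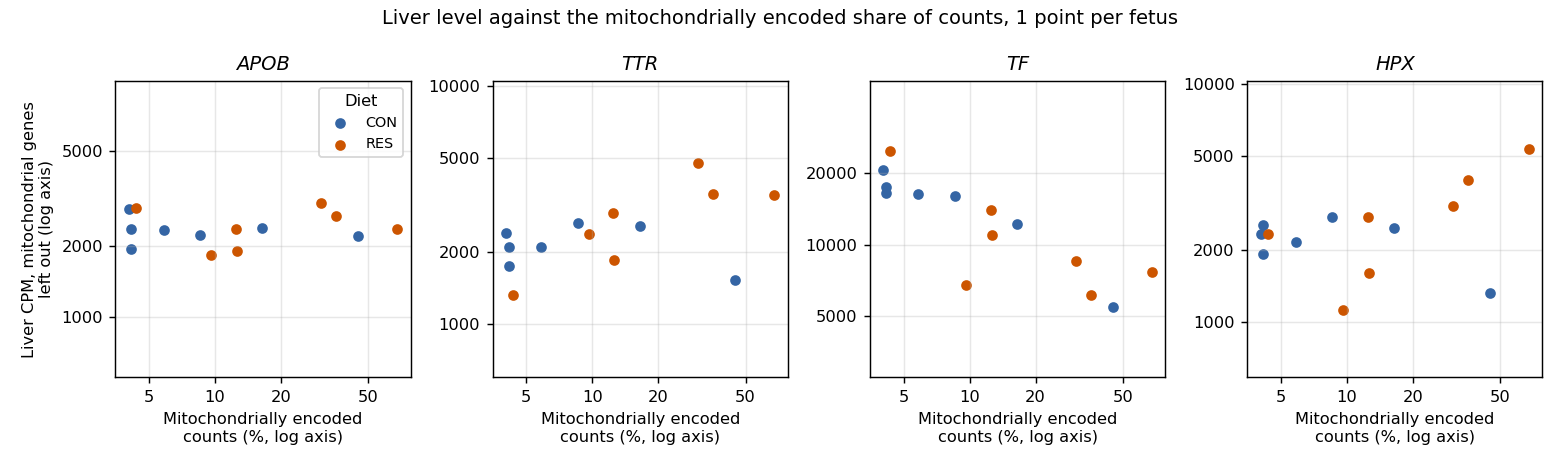
Liver level of each gene (CPM with mitochondrially encoded genes left out of the library, log axis) against the percent of counts from mitochondrially encoded genes (log axis), 1 point per fetus, CON in blue and RES in orange; all y axes span the same fold range. *TF* falls from left to right (r = -0.85), while *APOB* is nearly flat (r = 0.07).

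The 4 genes also varied by different amounts from liver to liver. Over the 14 livers, *APOB* spanned a 1.66-fold range in scaled CPM, *TTR* 3.61-fold, *TF* 4.50-fold and *HPX* 4.76-fold, with SDs of log2 CPM of 0.22, 0.50, 0.69 and 0.59. Without TMM factors the ranges were 5.10-fold for *APOB*, 3.48-fold for *TTR*, 13.4-fold for *TF* and 3.66-fold for *HPX*. The order thus changed with the scaling, and *APOB* was the least variable only with TMM factors. *TTR* and *HPX* varied together over the livers (r = 0.64, rho = 0.78, permutation p = 0.015 and 0.0013, adjusted p = 0.033 and 0.023 over 18 pairs, and r = 0.79 without RES fetuses 33 and 70). No other pair passed in the liver, and *TTR* with *TF* gave r = -0.39 (permutation p = 0.16, rho = -0.38).

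Among 4494 genes with a symbol, those closest to *TF* in the liver were *AHSG*, *CCL3*, *PLA2G12B*, *SLC39A1* and *GALNT2*, with r of 0.94 to 0.96. *AHSG* was thus among the 5 closest genes to *TF* in both liver and cerebrum. Those closest to *TTR* were *SPP2*, *FETUB*, *SLC39A5*, *MLIP* and *FAM89A* (0.87 to 0.91), of which *SPP2* and *FETUB* encode secreted proteins of the liver. For *HPX* they were the hepatic lipase gene *LIPC*, the corticosteroid-binding globulin gene *SERPINA6*, *SERPINA5*, *SLC16A13* and the complement gene *C1QC* (0.92 to 0.95). *APOB* had the lowest such coefficients, 0.73 to 0.78, with *NPTX1*, *ALDH7A1*, *PCSK6*, *TRAPPC13* and *RNASE6*.

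In the cerebrum, edgeR called 0 of 15151 genes by diet (0%), DESeq2 called 0, and 386 genes (2.55%) had an unadjusted p under 0.05. *TF* had a lowest, median and highest level of 0.365, 1.08 and 4.25 CPM in CON and 1.35, 3.26 and 45.05 CPM in RES, and a difference of 2.56 log2 units (SE 0.76, unadjusted p = 0.0038, edgeR adjusted p = 0.999). *APOB* had no count in 6 of 7 CON cerebra and 6 counts in CON fetus 2, while RES held 34 counts in fetus 1, 20 in fetus 33, 6 in fetus 25 and at most 1 in the other 4. It reached 1 CPM in RES fetuses 1, 25 and 33 and CON fetus 2 alone, so it entered the test mostly through RES libraries where it was high, and its p carries little information. Its difference was 3.29 (SE 1.13, unadjusted p = 0.010, edgeR adjusted p = 0.999), and it was 6.34 without CON fetus 2 and 2.65 without RES fetus 1. The estimates for *TTR* (1.62, SE 1.35, unadjusted p = 0.25) and *HPX* (1.57, SE 0.92, unadjusted p = 0.11) had edgeR adjusted p = 0.999 too. *HPX* reached 1 CPM in the same 4 cerebra as *APOB*, so the same limit holds for its p.

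Marker sums of other tissues in the cerebrum were set beside these values by diet. The hepatocyte sum had a lowest, median and highest value of 3.39, 8.65 and 91.2 CPM in CON and 4.19, 36.7 and 484 CPM in RES. For the skeletal muscle sum these were 3.76, 5.91 and 25.8 CPM in CON and 3.38, 11.3 and 334 CPM in RES, and for the erythroid sum 8.24, 12.5 and 21.4 CPM in CON and 6.57, 18.8 and 284 CPM in RES. The diets overlapped in all 3 sums, and the highest value of each was that of RES fetus 1. No count of single marker genes by direction is given, since several of them passed the filter on low counts mainly through the RES libraries where they were high. Without RES fetuses 1 and 33, the *TF* difference was 0.97 (SE 0.65, unadjusted p = 0.16, edgeR adjusted p = 0.9998) and the *TTR* difference 0.41 (SE 1.15, unadjusted p = 0.73), and *APOB* and *HPX* no longer passed the filter on low counts. Without RES fetus 1 alone the *TTR* difference was 0.20 and the *HPX* difference 0.48.

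In muscle, 2 of the 4 members passed the filter. *TTR* differed by -0.37 log2 units (SE 0.32, unadjusted p = 0.27, edgeR adjusted p = 0.68, and from -0.59 without CON fetus 68 to -0.20 without CON fetus 69) and *TF* by -0.15 (SE 0.64, unadjusted p = 0.82, edgeR adjusted p = 0.95). The sign of *TF* turned without CON fetus 54 (0.47) or RES fetus 25 (0.03). Of 14947 muscle genes, 0 were called (0%), 1481 (9.91%) had an unadjusted p under 0.05, and DESeq2 called 14.

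**Figure D5:**
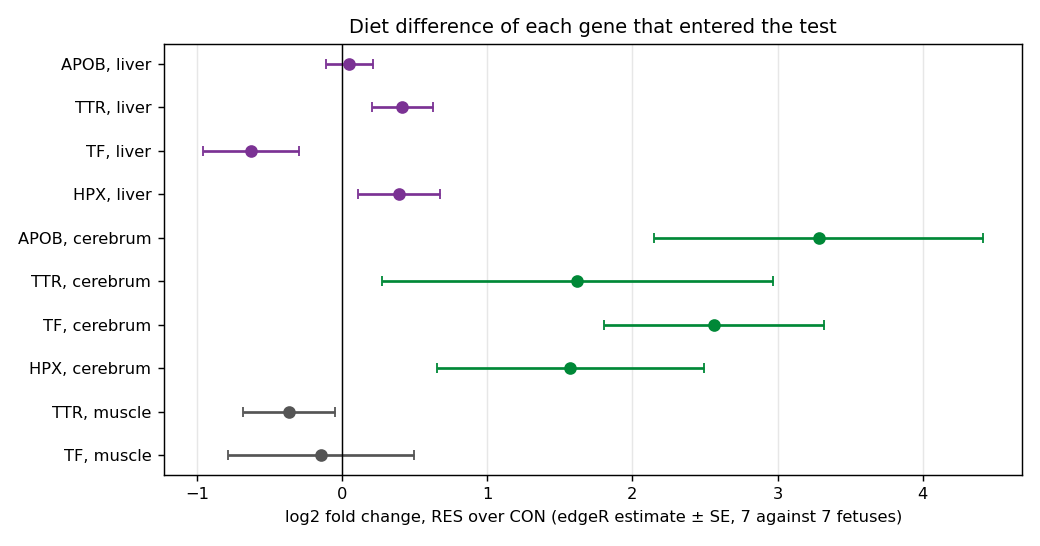
Difference between RES and CON (log2 fold change, edgeR estimate with its SE, 7 against 7 fetuses) for the 10 combinations of gene and tissue that entered the test; the vertical line marks 0. The largest estimates are those of *APOB* (3.29) and *TF* (2.56) in the cerebrum, and none passed an adjusted p of 0.05. *APOB* and *HPX* in the cerebrum entered the test mostly through RES libraries where they were high. The *APOB* estimate there ranged from 2.65 to 6.34 with 1 fetus left out.

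Whether the diet difference itself changed between tissues was tested with an interaction term over all 42 libraries. edgeR called 0 of 15972 genes in each of the 3 contrasts (0%), with 8.26% of genes at an unadjusted p under 0.05 for liver against cerebrum, 4.18% for muscle against cerebrum and 5.83% for liver against muscle. DESeq2 called 9, 2 and 7 genes. For *TF* the liver minus cerebrum difference of diet effects was -2.98 log2 units (SE 0.90, unadjusted p = 0.0020, edgeR adjusted p = 0.59), and for *APOB* it was -3.06 (SE 0.99, unadjusted p = 0.0035, edgeR adjusted p = 0.59). For *TTR* it was -1.59 (SE 1.14) and for *HPX* -1.31 (SE 0.85), with unadjusted p = 0.17 and 0.13 in the edgeR test. Without RES fetus 1 these differences were -1.99 for *TF*, -2.27 for *APOB*, -0.0311 for *TTR* and -0.29 for *HPX*. Without CON fetus 2 that of *APOB* was -6.07, with no *APOB* count left in the CON cerebra. Since *APOB* had no count in 6 of the 7 CON cerebra, the size and p of its difference carry little information. A difference between tissues in the response of these 4 genes to the diet was therefore not detected after adjustment.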

How the data were processed

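RNA from 42 libraries (3 tissues of 14 fetuses) was sequenced as strand-specific 50-bp paired-end libraries on an Illumina HiSeq. The authors aligned the reads to ARS-UCD 1.2 with STAR 2.7.3a and deposited raw counts per Ensembl gene (release 100). Which strand column was kept is not given in the sources used here. FastQC 0.11.8 is named in the labels. The table holds 22664 genes, of which 5131 could be named from the supplementary tables, the only source of symbols.

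Groups came from the labels. Genes with CPM under 1 in at least 80% of libraries were left out, counts were scaled by TMM, and edgeR 4.0.16 quasi-likelihood tests with fetal sex as covariate and Benjamini-Hochberg adjustment over all genes kept were run in R 4.3.3. Diet was tested within each tissue, and tissue contrasts and interactions over all 42 libraries. DESeq2 1.42.0 was an alternative. On simulated data the diet test recovered 43% of genes changed by 1 log2 unit in the liver, 24% in the cerebrum and 67% in muscle. For genes changed by 2 log2 units it recovered 91%, 81% and 92%. Diet differences near 1 log2 unit could thus go uncalled. The liver minus cerebrum test recovered 82% and 96% for the same 2 sizes. The printed CPM use TMM factors over all 42 libraries, while the diet tests use factors within a tissue. Log2 CPM use a prior count of 1. Correlations used 100000-resample permutation tests, exact within a diet (Python 3.11.15, scipy 1.17.1). RNA from the same fetus was paired across tissues by the animal number in the labels. Deviations from the group means of the same fetus correlated between -0.23 and 0.33 for liver and cerebrum (median 0.03), -0.06 and 0.22 for liver and muscle (median 0.12) and -0.16 and 0.17 for cerebrum and muscle (median 0.06).

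The members and lists were chosen with earlier results of these data known. The named genes were the 4 members, the 3 most abundant liver genes of each pathway list with any list gene past an adjusted p of 0.05 in a diet test (there were none), the most abundant and the absent genes of each marker list, and the 5 genes closest to a member. Some genes that this rule names are not reported here. Other marker genes and single fetuses were named after their values were seen. No 2 libraries held the same values. The reference table given was of another assembly, so no coordinates and no sequences are printed.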

Additional observations from a re-analysis of the deposited data

Results flagged for a closer look

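Gaps of a single library from its group were looked for in 24 groups of 7 (4 genes, 3 tissues, 2 diets), and 2 were found. Chance alone would mark about 1 in 20 groups in which values are not tied. *APOB* in the cerebrum of CON fetus 2 was at 0.33 log2 CPM (6 counts), while the other 6 CON cerebra had no count and lay at -2.77. With these 6 tied, the gap fills the whole range whatever the count, so the chance rate does not hold for this group. *TF* in the liver of CON fetus 2 was at 12.27 log2 CPM (4928 CPM), and the next CON liver was at 13.42. The same liver held the second largest mitochondrially encoded share among the 14 livers (44.9%), and the same cerebrum held 91.2 CPM of hepatocyte markers. The part of either in these values was not tested.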

How the results depend on the processing

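No diet call of a member was gained or lost under DESeq2, its size factors, no filter, a stricter filter, no sex covariate or mitochondrially encoded genes left out, nor when any fetus was left out, wherever the member was tested (DESeq2 gave no adjusted p for *TTR* and *TF* in muscle). Counts of genes moved with DESeq2, from 0 to 78 in the liver, 14 in muscle, and 9, 7 and 2 for the interaction of liver with cerebrum, liver with muscle and muscle with cerebrum. With the fetus as a replicate block, the *TF* difference between cerebrum and muscle (0.96) lost its call, the *TTR* excess in the liver over the cerebrum was 3.65, and no other call changed. Without RES fetuses 1, 6 and 33 and CON fetus 2, the liver diet estimates of *APOB* (-0.11) and *HPX* (-0.27) turned sign. The *HPX* muscle ratio against the hepatocyte markers fell to 0.35 without TMM factors and lost its call.

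Leaving out 1 fetus moved the liver diet estimate of *APOB* between -0.0196 and 0.11, the muscle estimates of *TF* between -0.64 and 0.47 and of *TTR* between -0.59 and -0.20, the cerebrum minus muscle difference of *APOB* between -0.00887 and 1.26 and of *TF* between 0.57 and 1.73, and the *HPX* muscle ratio between 0.47 and 0.68, with its call lost in 8 of 14 fits. The cerebrum diet estimates of *APOB* and *HPX* ranged from 2.65 to 6.34 and from 0.48 to 2.12, and the liver estimates of *TTR* and *HPX* from 0.28 to 0.64 and from 0.16 to 0.54. For liver against cerebrum the interaction ranged from -6.07 to -2.27 for *APOB*, -2.33 to -0.0311 for *TTR*, -3.47 to -1.99 for *TF* and -1.94 to -0.29 for *HPX*. It moved the interaction of *APOB* between -0.21 and 0.82 and of *HPX* between -1.32 and 0.35 for liver against muscle, and of *HPX* between -1.85 and 0.90 for muscle against cerebrum. The count for the interaction ranged from 0 to 1 for liver against cerebrum and from 0 to 1 for muscle against cerebrum. The cause was not tested.

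Correlations in the cerebrum turned sign within CON for *APOB* with choroid plexus (-0.68), meningeal (-0.76) and erythroid markers (-0.34), for *TTR* with forebrain markers (0.27), for *TF* with choroid plexus (-0.13), meningeal (-0.20) and forebrain markers (0.31), and for *HPX* with choroid plexus (-0.32), meningeal (-0.84) and erythroid markers (-0.73). *APOB* had no count in 6 of the 7 CON cerebra, so its coefficients within CON show only where CON fetus 2 lay on each marker sum. That cerebrum held the lowest choroid plexus and meningeal sums of the CON group (46.7 and 0.923 CPM). For *HPX* the correlations also turned with meningeal markers (-0.20) without the 2 farthest fetuses and with choroid plexus markers (-0.0263) when *OTX2* was left out too. The cause of the other changes of sign was not tested. Without TMM factors the mean liver log2 CPM was 10.30 for *APOB*, 10.33 for *TTR*, 12.64 for *TF* and 10.32 for *HPX*, and a prior count of 3 moved *HPX* in muscle to -0.69. Depth limits *APOB* and *HPX* outside the liver, where most libraries held under 10 counts.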

Other observations

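In the muscles of CON fetus 73 and RES fetus 1, which held the most forebrain markers, *TTR* was at 0.651 and 1.04 CPM, within the range of the other muscles. Of the 8 choroid plexus markers with an identifier, 5 had a mean of at least 1 CPM in the liver, led by the coagulation factor gene *F5* (38.9 CPM on average), and *OTX2* had 0 counts in all 14 livers. In muscle *AQP1*, a water channel, was the most abundant of these markers (73.7 CPM) and *OTX2* was again at 0 in all libraries.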
